A study of Mus musculus and Homo sapiens with 20 samples.

Results

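The replication-dependent histone genes encode the bulk of the core and linker histones that package newly copied DNA. In the mouse they were taken as all autosomal protein-coding GENCODE genes with a symbol starting Hist1h, Hist2h, Hist3h or Hist4h, which gave 67 of 20807 genes on mm10. In the human annotation (hg38) the symbols H1-1 to H1-6 and the numbered H2AC, H2BC, H3C and H4C series gave 69 of 19111 genes. The rule used names only and no measured value, but it was chosen with earlier results of these data known. Of the mouse genes 6 encode H1, 18 H2A, 18 H2B, 12 H3 and 13 H4. A total of 54 lie on chromosome 13, 10 on chromosome 3, 2 on chromosome 11 and 1 on chromosome 6.

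The measurements are peak positions from CUT&Tag, in which an antibody brings a transposase to a chromatin mark and the DNA around it is cut and sequenced. H2AK119ub, a ubiquitin on histone H2A placed by Polycomb repressive complex 1, and H3K27me3, a methyl mark placed by Polycomb repressive complex 2, were each mapped in 2 mouse cell types: embryonic stem (mES) cells, and Lin- c-Kit+ (LK) bone marrow cells, which are haematopoietic stem and progenitor cells (HSPCs). Both cell types were either wild type for Tet2 (WT) or Tet2 knockout (KO). In K562, an established human leukaemia cell line, H2AK119ub alone was mapped after siControl or after siMBD6, an siRNA against MBD6, which recruits the PR-DUB complex that removes this ubiquitin. Every one of the 10 groups had 2 libraries, 16 mouse and 4 human in all, and the WT mouse libraries serve in the comparison of cell types and in those with KO. TET2 oxidises 5-methylcytosine, and the comparisons ask whether its loss, or depletion of MBD6, altered where the marks were called.

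The WT and KO mES cells were cultured with LIF and inhibitors of GSK3 and MEK, and the labels name neither their strain nor a clone. The HSPCs came from the bone marrow of 6 to 8 week old WT and Tet2 KO mice by magnetic depletion of lineage-positive cells and selection for c-Kit, so they are a mixture of stem and progenitor cells. The study's methods name C57BL/6 as the background of the WT mice, with Tet2-/- mice backcrossed to it. The labels do not give the TET2 genotype of the K562 cells. They also do not say whether the 2 libraries of a group came from separate cultures or animals, so the spread between them may be technical.

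Replication-dependent histone genes are short, lie in dense clusters and are switched on together in S phase, when NPAT gathers at histone locus bodies. Their mRNAs end in a conserved stem-loop in place of a poly(A) tail, which SLBP binds. Variant histones such as H2A.Z and H3.3 are also made outside S phase, from separate, polyadenylated genes. A few members of the clusters are used mainly in male germ cells, among them Hist1h2ba (TH2B), Hist1h2aa (TH2A) and Hist1h1t (H1t).

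The shared 3′ end was visible in the genome sequence. The core of the stem-loop, CTTTTCAG on the gene strand, stood within 150 bases after the stop codon in 54 of 67 mouse members (80.6%), against 0.783% of 16086 genes with an annotated stop. In the human genome it stood there in 52 of 69 members (75.4%), against 0.891% of 13577 genes. None of the ribosomal protein or Hox genes examined had it. All genes include the members, which hold 54 of the 126 mouse matches and 52 of the 121 human ones. The search asked for the core only, and in some members, such as Hist1h4i and Hist1h2bb, the letters beside it are not complementary. The 4 sites printed here belong to members whose marks are described below. They read 5′ to 3′ on the gene strand with the core in capitals. In each, the 4 letters next to the core on either side pair as part of the stem. The sites lie at chr13:23934887-23934910 (Hist1h2aa), chr13:21718091-21718114 (Hist1h3h), chr11:58955168-58955191 (Hist3h2a) and chr13:23551287-23551310 (Hist1h4f), all in mm10.
Hist1h2aa: aaaaggctCTTTTCAGagccacct
Hist1h3h: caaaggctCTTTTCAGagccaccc
Hist3h2a: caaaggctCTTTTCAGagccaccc
Hist1h4f: caaaggccCTTTTCAGggccaccc
Hist1h3h and Hist3h2a, on different chromosomes, carried the same 24 letters. Hist1h2ba and Hist1h4a had no exact match to the core in that stretch.

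The promoters were also alike. RefSeq (GRCm38.p6) held a promoter, 250 bases before to 50 after the start, for 61 of the 67 mouse members. CCAAT on either strand was in 52 of them (85.2%), against 37.4% of all 32851 promoters. TATAAA was in 34 (55.7% against 13.6%) and the octamer ATTTGCAT in 13 (21.3% against 1.74%). A match is a string of letters and not a measured binding site. Below are the promoters of 5 members that mark the extremes of the data, with these motifs in capitals on whichever strand they were found, so that some read as the reverse complement. Hist1h2ba (chr13:23934107-23934406, minus strand) was covered by both marks in mES cells. Hist1h4a (chr13:23761200-23761499, minus strand) and Hist1h3h (chr13:21717378-21717677, plus strand) were covered in HSPCs and not in mES cells. Hist3h2a (chr11:58954435-58954734, plus strand) was covered in every mouse library, and Hist1h2bq (chr13:21810150-21810449, minus strand) in none.
Hist1h2ba: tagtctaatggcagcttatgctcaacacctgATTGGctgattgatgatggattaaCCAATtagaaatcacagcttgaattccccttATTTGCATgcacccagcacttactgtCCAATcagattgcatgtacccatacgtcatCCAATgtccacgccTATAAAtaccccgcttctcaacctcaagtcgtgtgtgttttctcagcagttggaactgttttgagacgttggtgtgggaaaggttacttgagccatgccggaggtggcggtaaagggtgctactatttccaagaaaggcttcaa
Hist1h4a: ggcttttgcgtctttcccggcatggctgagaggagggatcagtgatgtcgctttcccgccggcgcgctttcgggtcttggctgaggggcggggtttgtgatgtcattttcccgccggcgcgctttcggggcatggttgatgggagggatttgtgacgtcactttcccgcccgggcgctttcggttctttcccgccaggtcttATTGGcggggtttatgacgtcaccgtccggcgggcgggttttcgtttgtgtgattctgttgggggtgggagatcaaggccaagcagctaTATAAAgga
Hist1h3h: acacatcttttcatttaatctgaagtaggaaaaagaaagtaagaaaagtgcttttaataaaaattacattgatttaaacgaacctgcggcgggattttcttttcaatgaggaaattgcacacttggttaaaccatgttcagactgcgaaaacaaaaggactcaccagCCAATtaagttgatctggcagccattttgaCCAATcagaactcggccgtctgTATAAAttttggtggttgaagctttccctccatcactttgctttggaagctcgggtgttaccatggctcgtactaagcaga
Hist3h2a: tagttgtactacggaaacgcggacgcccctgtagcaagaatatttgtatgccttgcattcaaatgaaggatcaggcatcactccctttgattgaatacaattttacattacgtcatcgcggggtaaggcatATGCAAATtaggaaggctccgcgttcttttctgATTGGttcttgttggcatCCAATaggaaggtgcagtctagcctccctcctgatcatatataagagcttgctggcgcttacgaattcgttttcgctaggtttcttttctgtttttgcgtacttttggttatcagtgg
Hist1h2bq: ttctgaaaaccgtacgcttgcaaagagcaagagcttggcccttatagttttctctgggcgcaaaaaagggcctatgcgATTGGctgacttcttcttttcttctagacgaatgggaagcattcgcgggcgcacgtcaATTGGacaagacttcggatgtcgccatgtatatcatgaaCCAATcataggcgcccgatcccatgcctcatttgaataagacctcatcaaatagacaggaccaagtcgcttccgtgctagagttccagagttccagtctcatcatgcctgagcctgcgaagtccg
The promoter of Hist1h2br was identical to that of Hist1h2bq in 300 of 300 bases. Hist1h2ba and Hist1h2aa are divergent neighbours whose promoters share 220 bases, so 1 peak can cover both. In the 2001 bases around the start the median GC content was 49.4% for members and 51.4% for all genes, while the ratio of observed to expected CpG was higher in members (0.757 against 0.486). The human windows had 48.9% GC against 55.1%, and CpG ratios of 0.774 against 0.618.

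The lists held 85121 to 167378 peaks in the mouse and 91721 to 110860 in K562, and gave positions only. Read depth is therefore unknown, and no value below has a counting error. The most common peak width was 501 bp, which is why 25.0% (501 of 2001 bases) recurs. In the HSPC KO libraries 17.8% of H3K27me3 peaks lay off the autosomes against 0.768% to 0.792% in WT, and 2.21% to 2.27% of H2AK119ub peaks against 0.402% to 0.517%. All members are autosomal, and the part of this difference in the results was not tested. The cell types were compared with 6 marker genes each in H3K27me3. Of the pluripotency genes Pou5f1, Nanog, Sox2, Klf4, Esrrb and Zfp42, the first 4 were higher in both WT HSPC libraries than in both WT mES libraries, at 100% in all 4 HSPC libraries and 0% to 12.2% in the mES libraries. Esrrb was at 85.1% to 100% in mES cells and 100% in HSPCs, and Zfp42 was at 0% in all HSPC libraries and in 3 of 4 mES libraries. Of the haematopoietic genes, Spi1 (100% in mES cells, 3.90% to 27.3% in HSPCs), Cd34 and Runx1 were lower in WT HSPCs than in WT mES cells. Kit overlapped, Gata2 was at 100% and Ptprc at 0% in all 8 libraries of the mark, so 5 of the 12 markers did not separate the cell types by H3K27me3. In H2AK119ub Nanog, Sox2, Esrrb and Zfp42 were lower in WT HSPCs than in WT mES cells, and Pou5f1 and Klf4 were higher. Of the haematopoietic genes, Kit and Runx1 were higher in that mark and Cd34 was lower, while Spi1, Gata2 and Ptprc did not separate. Nanog, Sox2 and Runx1 thus differed in opposite directions between the marks. Peak positions do not check a deletion or a knockdown. H2AK119ub covered 0% and 32.6% of the Tet2 window in WT HSPCs and 61.0% and 68.1% in KO. The MBD6 window was at 0% in both siControl libraries and at 25.0% and 40.8% after siMBD6.

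The unit throughout is the percent of the window from 1 kb before to 1 kb after the annotated gene start that lay under a peak. Means are over the 2 libraries of a group with their SD (n = 2). A member is called lower or higher in a comparison when both libraries of the group lay below or above both of the other. With 2 libraries against 2 the smallest p that a two-sided exact permutation test allows is 0.333, so no single comparison can pass 0.05, and the share of all genes called in the same way is given as background. Of the 67 mouse windows 51 overlapped that of another member, and they merge into 38 stretches, so members are not independent of each other.

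The clearest difference was between cell types. H2AK119ub covered 65.2% ± 1.64 of the members' windows in WT HSPCs and 19.3% ± 2.05 in WT mES cells, whereas the mean of all genes was 44.4% ± 3.60 and 44.0% ± 0.479. The members were thus well below the average gene in mES cells and well above it in HSPCs. Of the 67 members 53 (79.1%) were higher in HSPCs and 2 were lower, against 24.5% and 18.9% of all genes. The median difference over members was 51.7 percentage points, and that over all genes was 0.

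All histone classes shared this difference, in that the WT libraries of both cell types did not overlap for the mean of any class. The means in mES cells and HSPCs were 20.1% and 53.4% for the linker histone H1 genes, 20.2% and 63.9% for H2A, and 28.7% and 71.3% for H2B. For H3 they were 7.32% and 57.6%, and for H4 15.9% and 70.8%. The counts called higher were 5 of 6 H1 genes, 13 of 18 H2A genes, 14 of 18 H2B genes, 10 of 12 H3 genes and 11 of 13 H4 genes. H3 genes had the lowest mean in mES cells and H1 genes the lowest in HSPCs.

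Among the core histone genes, Hist1h3h (H3, chr13:21717659-21718069) and Hist1h4a (H4, chr13:23760692-23761230) had no H2AK119ub peak in any of the 4 mES libraries and were covered over 100% of the window in each of the 4 HSPC libraries. Hist1h4f (H4) was at 0% in both WT mES libraries and at 100% and 99.5% in WT HSPCs. Hist1h2ai (H2A) was at 0% and 25.0% in mES cells and at 100% in both HSPC libraries, and Hist1h2bc (H2B) at 0% and 25.0% against 100% and 98.9%. For Hist1h3h, Hist1h4a and Hist1h4f the WT libraries of the cell types were separated by nearly the whole window. For Hist1h2ai and Hist1h2bc the means differed by 87.5 and 86.9 percentage points.

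The germ cell pair went the other way. Hist1h2ba, at chr13:23933773-23934156, had H2AK119ub over 100% of its window in both WT mES libraries and over 25.0% and 0% in WT HSPCs. Hist1h2aa, at chr13:23934462-23934851, stood at 85.1% and 86.4% in mES cells and at 25.0% and 0% in HSPCs. These were the 2 members called lower. H3K27me3 covered 100% of both windows in both WT mES libraries and none of either window in any of the 4 HSPC libraries. Hist1h1t, the germ cell H1 gene within the main cluster, did not share this pattern: H2AK119ub was at 0% in both WT mES libraries and at 31.3% and 31.6% in WT HSPCs, and H3K27me3 was at 0% in all 8 mouse libraries of that mark.

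**Figure D1:**
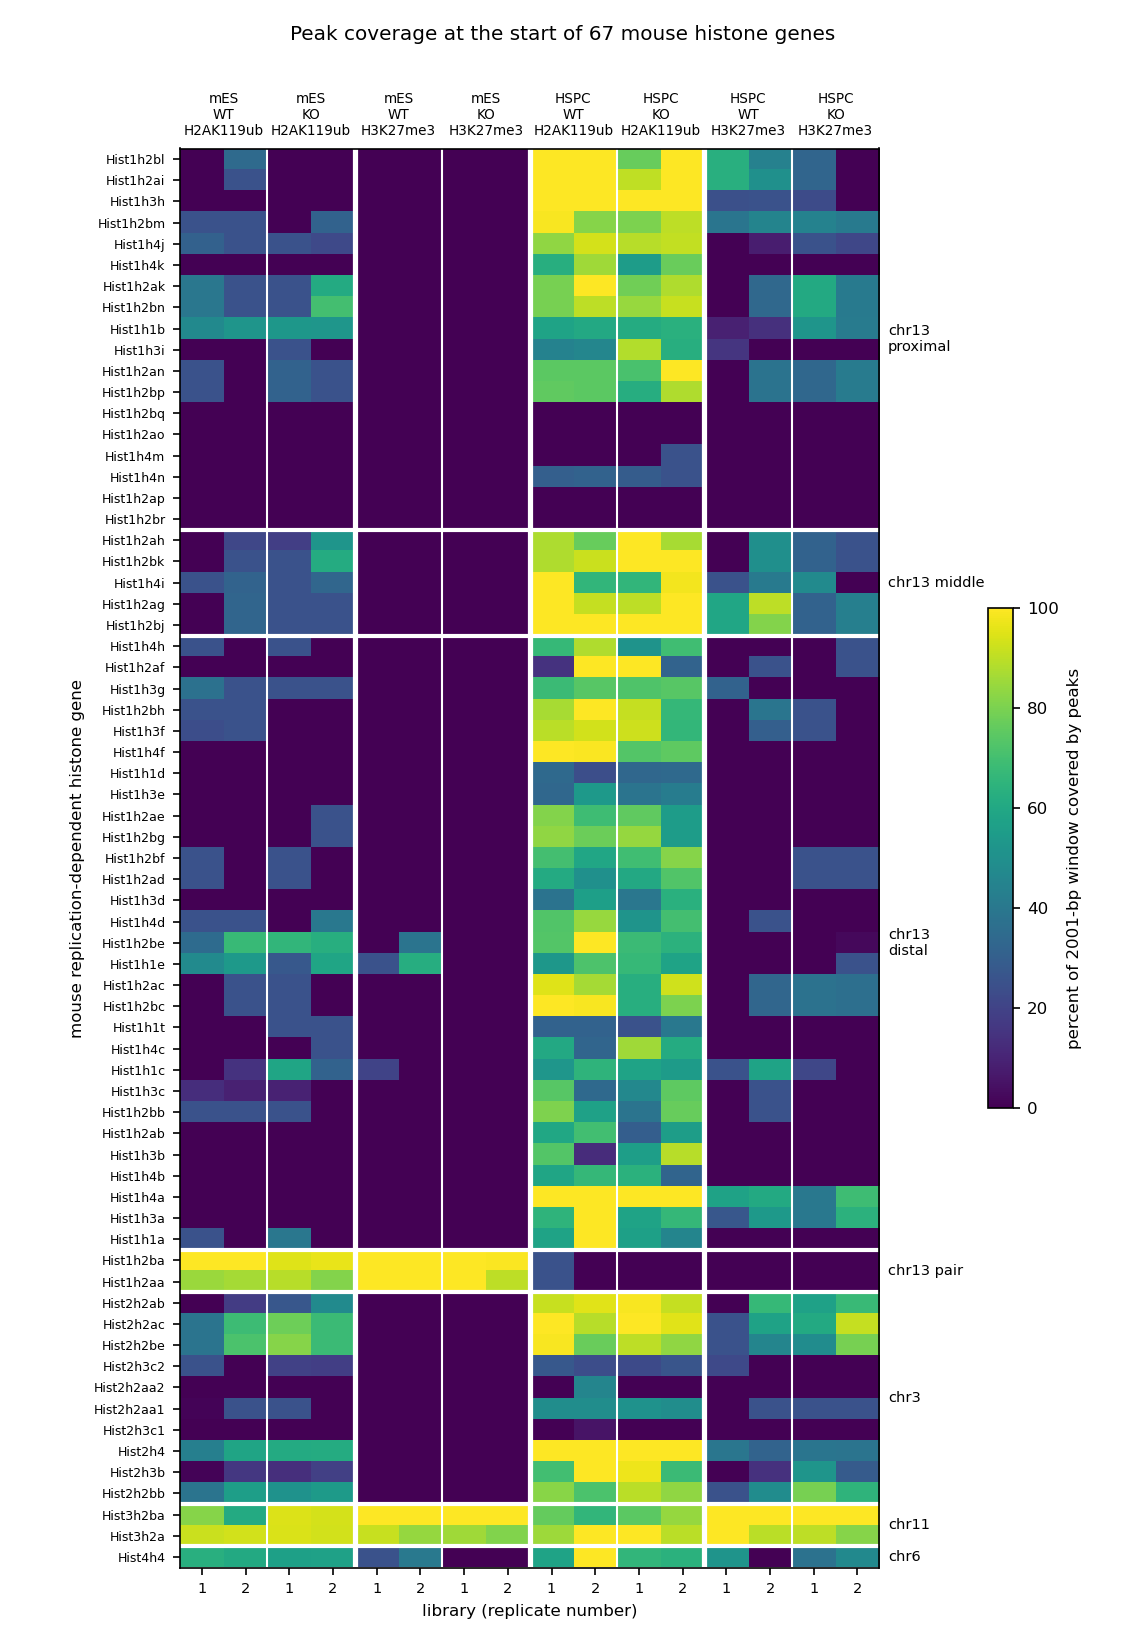
Percent of the window of 1 kb on each side of the gene start under a peak (colour scale, 0% to 100%) for each of the 67 mouse members (one line each, in genome order within clusters) in the 16 mouse libraries. H2AK119ub in HSPCs fills most lines, while H3K27me3 in mES cells is limited to a few members such as the Hist1h2ba and Hist1h2aa pair and the chromosome 11 pair.

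The ribosomal protein genes, which are also short and highly transcribed, differed between the cell types in the same direction, from 32.4% ± 1.84 in mES cells to 63.3% ± 4.13 in HSPCs, with 70 of 95 called higher. The Hox genes, classical Polycomb targets, differed in the opposite direction, from 92.0% ± 1.84 to 73.9% ± 2.86, with 13 of 39 lower and 1 higher. The 49 other protein-coding genes between the first and the last member on chromosome 13 stood at 9.74% ± 1.04 in mES cells and 11.5% ± 1.62 in HSPCs, with 5 higher and 2 lower. The higher coverage in HSPCs was therefore shared with ribosomal protein genes and was not seen in the mean of these 49 genes. The stretch they were taken from includes long gaps between groups of histone genes, such as chr13:22043676 to chr13:23531050. Close to the members the bases outside their windows were covered more in HSPCs as well, as given below.

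The peaks themselves differed in width. In HSPCs 39 to 42 H2AK119ub peaks touched a member's window, with medians of 1636 to 2262 bp, and 2.56% to 7.32% of them had the common width of 501 bp against 38.7% to 41.4% of all autosomal peaks. In mES cells 24 to 26 such peaks touched a member, with medians of 501 to 946 bp.

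**Figure D2:**
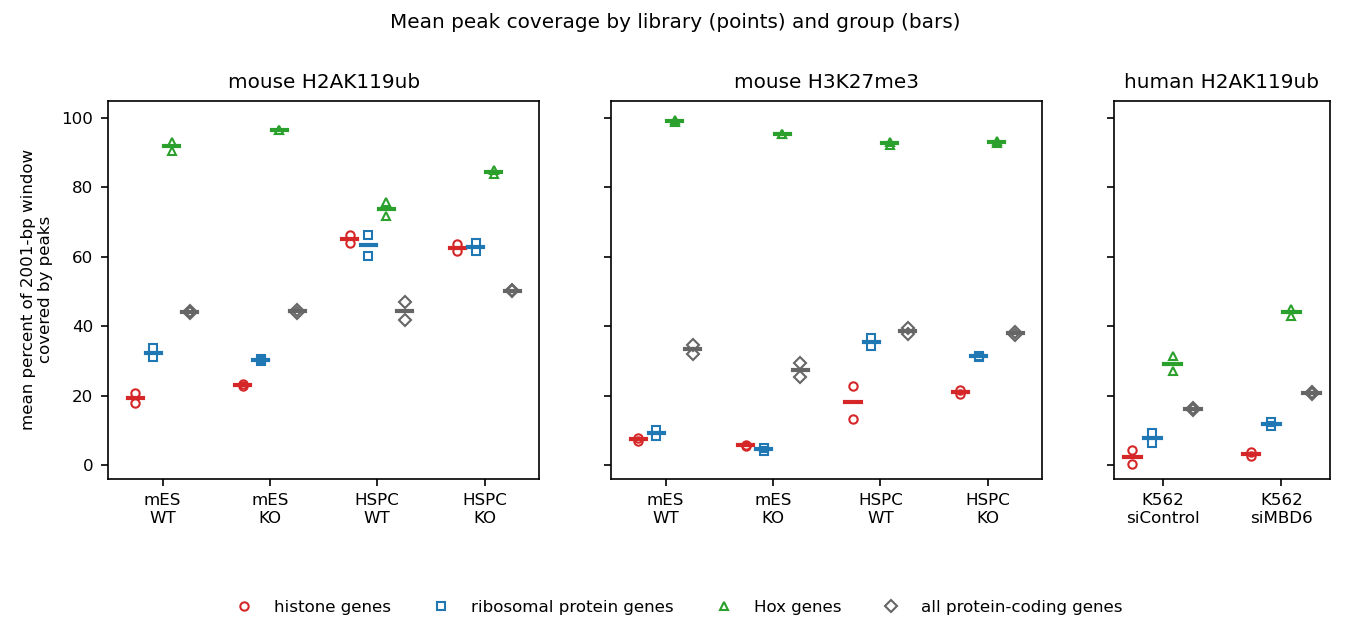
Mean percent of the window covered, with 1 point per library and a bar at the group mean, for the histone genes, all autosomal protein-coding genes, ribosomal protein genes and Hox genes in each group. For H2AK119ub the members lie near 19% to 23% in mES cells, below all other sets, and near 63% to 65% in HSPCs, close to the ribosomal protein genes.

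Coverage was centred on the gene starts. In each of the 4 HSPC libraries 79.1% of members were covered by H2AK119ub at the most covered position, which lay at the start or 100 bp before it, and on average 27.9% to 36.9% were covered 3 to 5 kb away. For all genes the peak value in those libraries was 53.7% to 64.6%. In mES cells the most covered position held 32.8% to 41.8% of members, against 55.9% to 58.1% of all genes. Since neighbouring members lie within a few kb of each other, the flanks of one member include the starts of others.

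**Figure D3:**
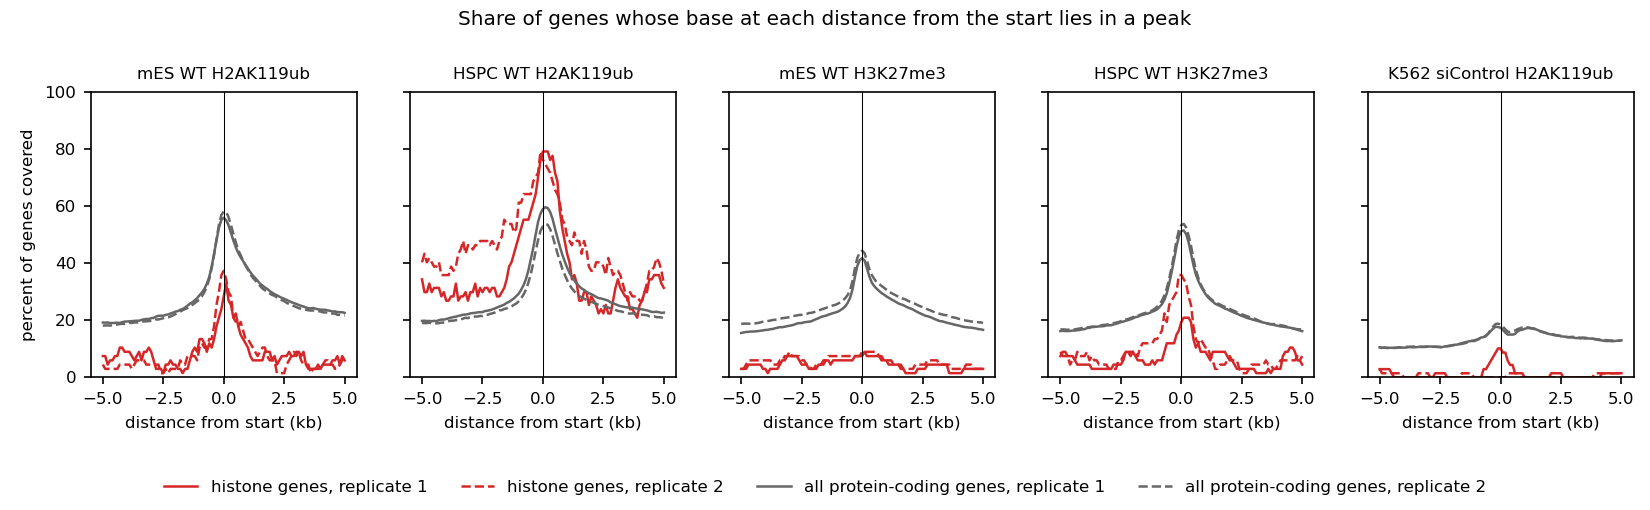
Percent of histone genes (red) and of all protein-coding genes (grey) with a peak over each position from 5 kb before to 5 kb after the gene start (x axis, in kb), in the WT and siControl libraries (replicate 1 solid, replicate 2 dashed). H2AK119ub in WT HSPCs reaches 79.1% of histone genes at or next to the start in both libraries, and H3K27me3 reaches 20.9% and 35.8%.

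H3K27me3 was sparser over these genes than H2AK119ub in every group. It covered 7.37% ± 0.668 of the members' windows in WT mES cells and 18.0% ± 6.79 in WT HSPCs, against 33.3% ± 1.88 and 38.6% ± 1.17 for all genes. Of the members 15 were higher in HSPCs and 3 lower, shares of 22.4% and 4.48% against a background of 28.7% and 15.2%, so the members did not exceed the background in either direction. The 2 WT HSPC libraries were far apart, at 13.2% and 22.8%.

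Of the members called higher in HSPCs, those with the largest difference lay in the middle block of chromosome 13. Hist1h2ag (H2A) and its divergent partner Hist1h2bj (H2B) were both at 0% in the WT mES libraries. In WT HSPCs Hist1h2ag stood at 59.3% and 90.2%, and Hist1h2bj at 59.3% and 81.5%. Hist1h4a, Hist1h2ai and Hist1h2bl were also at 0% in both mES libraries, and in HSPCs they stood at 57.8% and 60.7%, 63.2% and 50.1%, and 63.1% and 43.8%. Besides the germ cell pair, the 1 member called lower was the linker histone gene Hist1h1e, at 25.0% and 62.3% in mES cells and 0% in both HSPC libraries. As for H2AK119ub, the ribosomal protein genes differed in the same direction, from 9.26% ± 1.12 to 35.5% ± 1.74, and the Hox genes were near 100% in mES cells (99.1% ± 0.262) and at 92.7% ± 0.628 in HSPCs.

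Members with both marks were counted where each mark touched the window in both libraries of a group. There were 6 such members in WT mES cells (Hist3h2ba, Hist3h2a, Hist1h1e, Hist1h2ba, Hist1h2aa and Hist4h4) and 4 in KO mES cells (Hist3h2ba, Hist3h2a, Hist1h2ba and Hist1h2aa). In HSPCs there were 17 in WT and 27 in KO. The count needs each mark in both libraries, and the WT HSPC libraries were unequal. H3K27me3 touched 24.1% and 48.1% of the chromosome 13 members in WT and 44.4% and 40.7% in KO. The share of all genes with both marks is not given here, so these counts are not read as a difference between genotypes. H3K27me3 in both libraries with no H2AK119ub in either was found for 0 members in every group. H2AK119ub without H3K27me3 was found for 18 and 24 members in WT and KO mES cells, and for 19 in each HSPC genotype.

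The pair on chromosome 11, Hist3h2ba (chr11:58948920-58949533) and Hist3h2a (chr11:58954685-58956830), was touched by both marks in all 16 mouse libraries. H3K27me3 covered 100% of the Hist3h2ba window in all 8 libraries of the mark, and 80.9% to 100% of that of Hist3h2a. H2AK119ub covered 61.2% to 94.9% of Hist3h2ba and 85.3% to 100% of Hist3h2a. In this pair the 2 cell types did not differ in the way the other clusters did, at 82.1% ± 6.86 in WT mES cells and 81.8% ± 1.41 in WT HSPCs for H2AK119ub.

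At the other end, Hist1h2bq, Hist1h2ao, Hist1h2ap and Hist1h2br had no peak of either mark in any of the 16 libraries. They form near-identical pairs in the proximal block of chromosome 13, and 0% of the 50-base words in their windows occur once in mm10, with a median of 2 copies. Hist1h4m and Hist1h4n in the same repeat, whose promoters agree in 298 of 299 aligned bases, had 7.02% and 8.04% unique words. Hist1h4n stood at 25.0% to 31.4% for H2AK119ub in the HSPC libraries, and Hist1h4m at 0% in 3 of them and 25.0% in 1. An aligner such as bowtie2 reports by default 1 place for a read that matches several. An uncovered window here therefore cannot be told apart from one whose reads were divided between the copies or dropped. In the pairs without any peak both copies were uncovered. Fewer than 50% of the words were unique in 10 members (14.9%, against 4.16% of all genes), 6 in the proximal block of chromosome 13 and 4 on chromosome 3. With the remaining 57 members alone, the difference in mean H2AK119ub between WT HSPCs and WT mES cells was 52.0 percentage points.

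The chromosome 13 genes fall into 4 blocks. The proximal block holds 18 members (chr13:21715763-21837530), the middle block 5 (chr13:22035164-22043676) and the distal block 29 (chr13:23531050-23764406), and the germ cell pair stands apart from them. Over the window, the chromosome 13 members had a lower mean than the 13 other mouse members in 16 of 16 libraries. The difference was −29.3 to −18.1 percentage points for H2AK119ub in mES cells, −12.1 to −10.4 for H3K27me3 in mES cells and −34.4 to −17.4 for H3K27me3 in HSPCs. For H2AK119ub in HSPCs it was small, −8.52 to −0.498. For H3K27me3 in mES cells the chromosome 3 members were at 0% in every library, below the chromosome 13 mean. That difference thus came from the chromosome 11 pair and, in WT, Hist4h4 on chromosome 6. Over the annotated gene span, which is a median of 539 bp long, the H2AK119ub difference in HSPCs had the opposite sign in all 4 libraries (4.70 to 13.5), while the other 12 libraries remained lower. The order of the clusters in HSPCs thus depended on the stretch measured.

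In WT mES cells the mean H2AK119ub of the windows was 12.4% ± 0.823 in the proximal, 16.8% ± 16.7 in the middle and 11.2% ± 0.280 in the distal block. The germ cell pair stood at 92.9% ± 0.442, the chromosome 3 cluster at 25.0% ± 9.09, the chromosome 11 pair at 82.1% ± 6.86 and Hist4h4, alone on chromosome 6, at 61.9% ± 1.45. In WT HSPCs the proximal block stood at 56.3% ± 2.04, the distal block at 68.8% ± 2.93 and the middle block at 90.2% ± 7.05, with the chromosome 3 cluster at 63.8% ± 2.66 and the germ cell pair at 12.5% ± 17.7. The proximal, middle and distal blocks and the chromosome 3 cluster were each higher in both WT HSPC libraries than in both WT mES libraries, while the chromosome 11 pair and Hist4h4 overlapped.

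In HSPCs H2AK119ub was denser in the members' windows than in the rest of the proximal and distal blocks, although the windows are the smaller part of each block. In the distal block H2AK119ub covered 66.3% ± 3.53 of the bases in members' windows in WT HSPCs and 13.2% ± 2.42 of the other bases of the block. In the proximal block it covered 58.1% ± 2.69 and 14.4% ± 1.53. Over the whole block 23.3% ± 2.64 of the distal and 23.2% ± 1.77 of the proximal bases were covered. In WT mES cells the distal values for windows and rest were 10.4% ± 0.0997 and 4.81% ± 0.00862, and the proximal values were 13.1% ± 0.916 and 1.17% ± 0.0276. The bases outside the windows were thus also covered more in WT HSPCs than in WT mES cells. In the chromosome 3 cluster they stood at 6.70% ± 2.37 in WT mES cells and 37.1% ± 7.69 in WT HSPCs. H3K27me3 in the distal block of WT mES cells was arranged the other way, with 2.63% ± 0.858 of the windows' bases and 8.83% ± 0.172 of the rest covered.

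**Figure D4:**
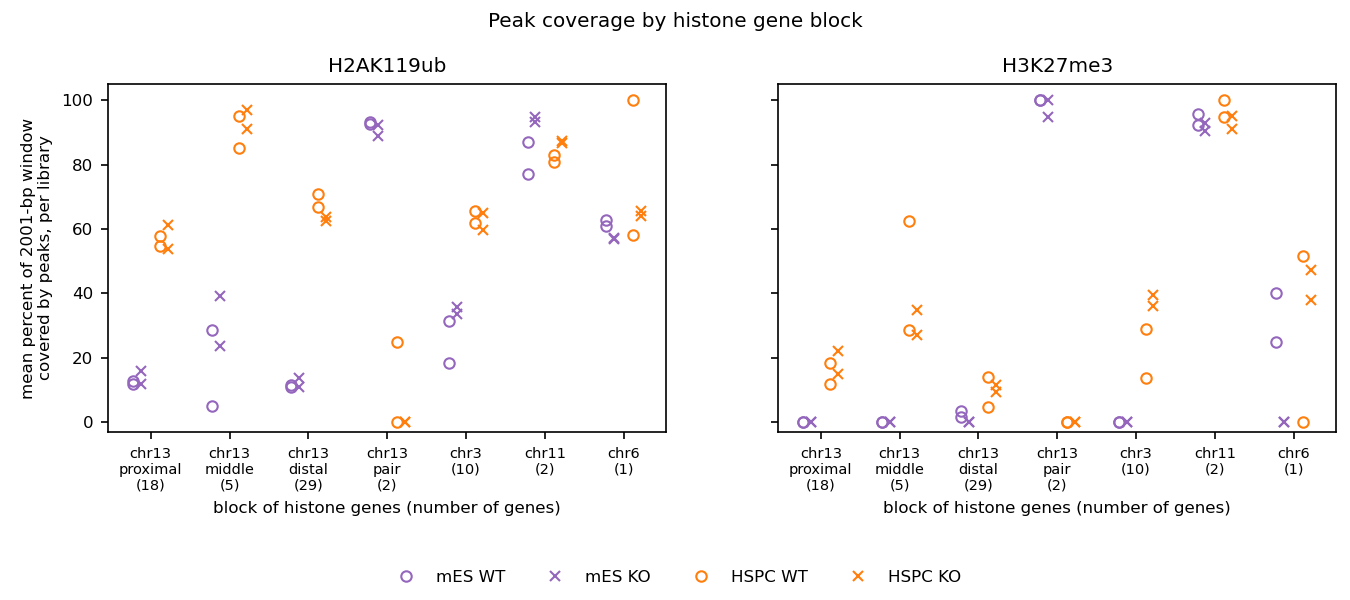
Mean percent of the window covered by H2AK119ub (left) and H3K27me3 (right) in each block of mouse histone genes, with 1 symbol per library (circles WT, crosses KO; purple mES cells, orange HSPCs) and the number of genes in parentheses. The germ cell pair, labelled chr13 pair, stands at 92.9% for H2AK119ub in WT mES cells and at 12.5% in WT HSPCs, and the chromosome 11 pair is high for both marks in every library.

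Loss of Tet2 in mES cells went with a small difference in mean H2AK119ub over the members, 19.3% ± 2.05 in WT and 23.0% ± 0.395 in KO. Both KO libraries (22.7% and 23.3%) lay above both WT libraries (17.9% and 20.8%). All genes stood at 44.0% ± 0.479 and 44.3% ± 0.750. Of the members 4 were lower and 6 higher in KO, shares of 5.97% and 8.96% against 9.25% and 10.6% of all genes, so neither count was above the background. The 13 members outside chromosome 13 stood at 36.6% ± 5.83 and 45.5% ± 1.18.

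Of the members called higher, the largest difference was at the linker histone gene Hist1h1c, at 0% and 14.6% in WT and 58.8% and 31.5% in KO. Hist2h2ab (H2A) stood at 0% and 17.8% in WT and 27.04% and 47.9% in KO, and Hist1h1t at 0% in both WT and 25.0% in both KO libraries. Hist3h2ba was at 81.9% and 61.2% in WT and 94.9% and 93.4% in KO, and Hist2h4 (H4) at 43.0% and 58.5% against 61.2% and 61.5%. Of these, Hist2h4 was the closest to overlap, and with peaks within 1 kb joined its difference was −6.15 percentage points. The other genes within 1 Mb of the chromosome 11 pair were also higher in KO, 37.9% ± 0.177 in WT and 42.1% ± 1.79 in KO (69 genes).

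The members called lower in KO mES cells were Hist1h2bh, at 25.0% in both WT libraries and 0% in both KO libraries, its neighbour Hist1h3f, at 23.7% and 25.0% against 0% in both, Hist4h4 and Hist1h2ba. The first 2 share 1 narrow peak in each WT library. Hist4h4 stood at 62.9% and 60.9% in WT and 56.8% and 57.3% in KO, and Hist1h2ba at 100% in both WT and 95.3% and 96.7% in KO. The difference at Hist4h4 had the opposite sign over the gene span (5.22 percentage points) and over 2 kb on each side (1.30). The 20 other genes within 1 Mb of Hist4h4 were lower in KO as well, 45.9% ± 2.47 in WT and 39.8% ± 4.04 in KO.

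H3K27me3 over the members in mES cells was 7.37% ± 0.668 in WT and 5.64% ± 0.160 in KO, without overlap of the libraries. All genes were lower in KO too, 33.3% ± 1.88 and 27.4% ± 2.88. Only 2 members were lower (2.99%) and 0 higher, against 16.4% and 1.96% of all genes, and 59 members had no peak of this mark in any of the 4 libraries. Hist1h1e stood at 25.0% and 62.3% in WT and 0% in both KO libraries, and Hist4h4 at 25.0% and 40.3% against 0% in both. The 20 neighbours of Hist4h4 stood at 44.8% ± 0.898 in WT and 33.4% ± 5.07 in KO. The 4 members touched in all mES libraries were the chromosome 11 pair and the germ cell pair, which remained at 80.9% or more in KO.

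In HSPCs the members did not share the genome-wide difference in H2AK119ub. All genes stood at 44.4% ± 3.60 in WT and 50.3% ± 0.241 in KO, while the members stood at 65.2% ± 1.64 in WT and 62.7% ± 1.55 in KO, with both KO libraries (61.6% and 63.8%) below both WT libraries (64.0% and 66.3%). Among members 7 were lower and 5 higher, shares of 10.4% and 7.46% against 5.32% and 18.3% of all genes. By block, the distal block of chromosome 13 stood at 68.8% ± 2.93 in WT and 63.2% ± 0.938 in KO with 6 lower and 1 higher, and the proximal block at 56.3% ± 2.04 and 57.5% ± 5.30. Over the gene span the groups overlapped, and the KO mean was 1.22 percentage points above the WT mean.

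Members of the distal block led the lower calls. Hist1h2bc (H2B) stood at 100% and 98.9% in WT and 62.8% and 80.4% in KO, and Hist1h4f at 100% and 99.5% against 73.1% and 75.2%. The linker histone gene Hist1h1a was at 58.1% and 100% in WT and 57.0% and 45.3% in KO. Without the second WT library its difference was −6.90 percentage points. Its WT libraries were further apart than the groups, as was the case for Hist1h2be, at 73.3% and 100% against 68.3% and 64.4%. The annotated start of Hist1h2be (chr13:23621124) lies inside Hist1h1e (chr13:23620629-23622558), while its stem-loop site is at chr13:23585527-23585550. The Hist1h2be window therefore lies partly over that H1 gene and far from the end of its own coding sequence. Hist1h2ab (H2A) stood at 59.4% and 69.8% in WT and 29.9% and 55.8% in KO.

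Higher calls were led by Hist1h3i (H3), at 44.3% and 46.0% in WT and 88.5% and 62.6% in KO, and Hist1h4c (H4), at 60.2% and 32.7% against 85.6% and 61.5%. Hist1h2bk (H2B) stood at 88.2% and 92.0% in WT and 100% in both KO libraries, Hist2h2bb (H2B) at 82.1% and 71.5% against 89.5% and 83.2%, and Hist1h1b (H1) at 58.0% and 60.5% against 61.4% and 63.6%. In each of the 4 HSPC libraries, 49 members had at least 50% of the window covered, but they were not the same members in each. For example, Hist1h3b stood at 73.2% and 12.8% in the WT libraries.

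H3K27me3 in HSPCs stood at 18.0% ± 6.79 over the members in WT and 20.9% ± 0.801 in KO, and the groups overlapped. Of the members 12 were higher (17.9%) and 6 lower (8.96%), against 7.66% and 9.27% of all genes. The share called higher was more than that of all genes, and some of these members share peaks. The mean rested on the WT libraries, with a difference of −1.93 percentage points without WT replicate 1 and 7.67 without WT replicate 2. Outside chromosome 13 the mean was 33.4% ± 4.98 in WT and 46.7% ± 1.91 in KO, and in the chromosome 3 cluster 21.3% ± 10.8 and 37.9% ± 2.38 with 4 of 10 higher, while the chromosome 13 members stood at 14.3% ± 7.22 and 14.7% ± 1.45.

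Of the members called higher, Hist1h1b had the largest difference, at 9.20% and 13.7% in WT and 52.2% and 41.5% in KO. On chromosome 3, Hist2h2bb stood at 25.0% and 48.8% in WT and 79.4% and 64.9% in KO, and Hist2h2ac (H2A) at 25.0% and 57.5% against 60.6% and 91.4%. The divergent pair Hist1h2ak and Hist1h2bn lay under the same peaks, each at 0% and 33.8% in WT and 60.7% and 40.8% in KO. In these last members the second WT library was closer to the KO libraries than the first was.

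The members called lower formed 2 divergent pairs and others. Hist1h2ai stood at 63.2% and 50.1% in WT and 32.7% and 0% in KO, and its partner Hist1h2bl at 63.1% and 43.8% against 32.7% and 0%. Hist1h2ag stood at 59.3% and 90.2% in WT and 31.6% and 43.0% in KO, and its partner Hist1h2bj at 59.3% and 81.5% against 31.6% and 43.0%. Hist1h1c was at 25.0% and 58.1% in WT and at 21.3% and 0% in KO, the reverse of its H2AK119ub difference in mES cells.

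**Figure D5:**
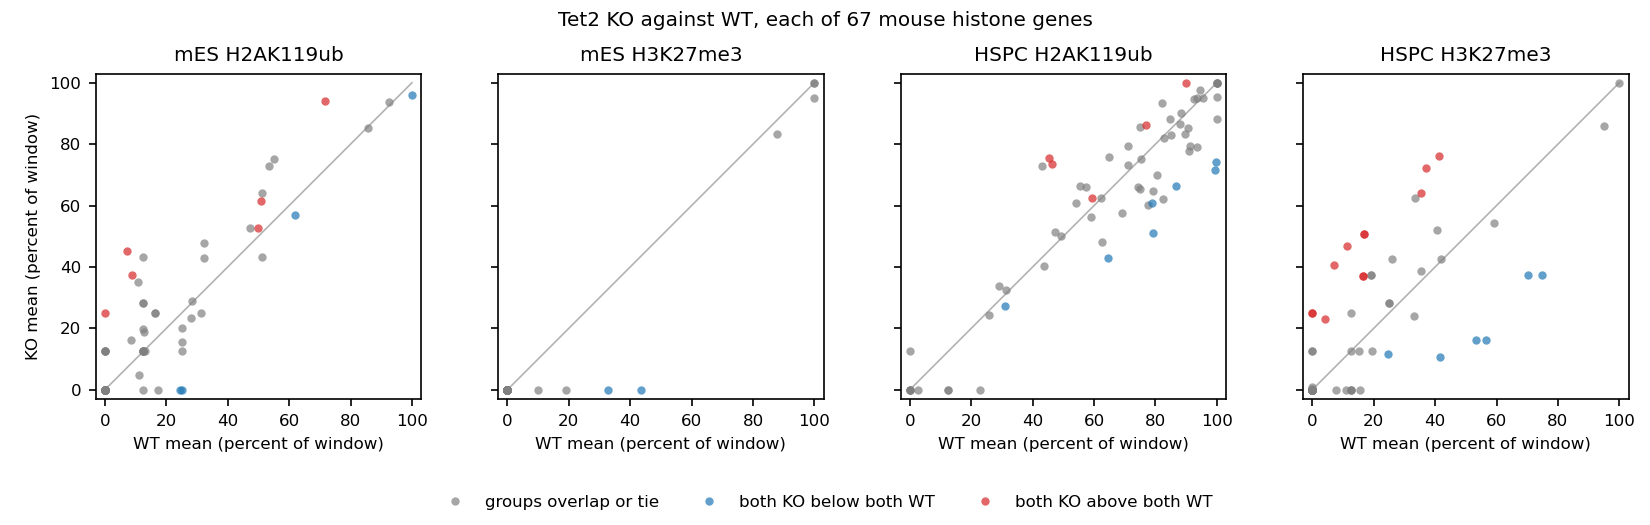
Mean percent of the window covered in KO (y axis) against WT (x axis) for each of the 67 mouse members, 1 panel per cell type and mark, with the line of equality. Blue and red points are members called lower and higher, and grey points overlap or tie. Members lie on both sides of the line except for H3K27me3 in mES cells, where 59 of them lie at 0 in both groups.

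Pooled over both cell types, an exact permutation test has 36 arrangements and a smallest p of 0.0556. At that p, 0 members were lower and 1 higher for H2AK119ub, against 0.726% and 2.61% of all genes, and 0 members were lower or higher for H3K27me3, against 2.25% and 0.221%. The 1 member was Hist1h1b. Its window was covered over 47.4% and 52.1% in the WT mES libraries and over 53.1% and 52.6% in those of the KO, besides the HSPC values above. Its mean difference was 3.15 percentage points (two-sided exact permutation p = 0.0556, adjusted p = 1 over all genes), and both KO libraries were higher in each cell type.

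In K562 cells the histone genes were almost free of H2AK119ub peaks. The mean over 69 members was 4.44% and 0.363% in the siControl libraries and 3.59% and 2.54% in the siMBD6 libraries, and the groups overlapped. All genes stood at 16.05% ± 0.453 and 20.8% ± 0.477, the ribosomal protein genes at 7.73% ± 1.90 and 11.8% ± 0.899 and the Hox genes at 29.2% ± 3.02 and 44.0% ± 1.45, each without overlap. Of the members 0 were called lower and 0 higher, against 2.27% and 13.7% of all genes. No peak touched 50 of the 69 members in any library, and none touched a member in all 4.

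The 2 siControl libraries were themselves unequal, with 9 and 1 members touched, against 10 and 6 after siMBD6. H2AC11 and H2BC11, a divergent pair in the middle block of chromosome 6, stood at 39.6% and 0% after siControl and at 0% and 37.7% after siMBD6. H2AC12 and H2BC12, also divergent, stood at 39.0% and 0% after siControl and at 25.0% and 0% after siMBD6. The HIST3 pair on chromosome 1, H2AC25 and H2BC26, stood at 36.9% and 0% after siControl and 31.3% and 0% after siMBD6. Of the germ cell members, H1-6 had no peak in any library, and H2AC1 and H2BC1 were touched in 1 siMBD6 library (12.0% and 22.7%). All 11 members of the HIST2 cluster (chr1:149782689-149887965) were uncovered, among them the 8 human members with fewer than 50% unique 50-base words.

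Of 12 genes for transcription and 3′ processing, H2AK119ub covered a mean of 38.3% ± 5.02 in WT mES cells and 58.2% ± 1.74 in WT HSPCs, with 8 of 12 higher and 0 lower, against 24.5% and 18.9% of all genes. Those called were Npat and Casp8ap2, which act at histone locus bodies, the transcription factors Hinfp and Pou2f1, and Slbp, Lsm11, Cpsf2 and Sympk of 3′ end formation. For H3K27me3 8 of 12 were also higher in HSPCs and 0 lower, against 28.7% and 15.2% of all genes. Slbp stood at 100% in both WT HSPC libraries for H2AK119ub against 99.4% and 89.6% in KO. With loss of Tet2, H2AK119ub was lower at 1 of 12 and higher at 2 in mES cells (9.25% and 10.6% of all genes), and lower at 1 and higher at 1 in HSPCs (5.32% and 18.3%). H3K27me3 was lower at 4 and higher at 0 in mES cells (16.4% and 1.96% of all genes), and lower at 2 and higher at 1 in HSPCs (9.27% and 7.66%). With counts this small, none of these Tet2 counts is read as differing from the background.

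The 9 replication-independent histone genes stood at 40.1% ± 2.77 for H2AK119ub in WT mES cells and 62.0% ± 8.42 in WT HSPCs, with 3 higher (H2afv, H3f3a and Cenpa) and 0 lower, against 24.5% and 18.9% of all genes. H1f0, the linker histone of non-dividing cells, had H3K27me3 over 100% of its window in all 4 HSPC libraries and both WT mES libraries, and H2afy2, which encodes a macroH2A, in all 4 HSPC and both WT mES libraries, with 75.3% and 47.8% in KO mES cells. H3f3a stood at 90.0% and 89.8% for H2AK119ub in WT HSPCs against 25.0% and 31.6% in WT mES cells. In K562 1 of 12 processing genes (CASP8AP2) and 2 of 9 variant histone genes (H2AX and MACROH2A2) were higher after siMBD6 and 0 were lower, against 13.7% and 2.27% of all genes.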

How the data were processed

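CUT&Tag libraries for H2AK119ub and H3K27me3 came from mES cells and HSPCs, Tet2 WT or KO, and for H2AK119ub from siControl and siMBD6 K562 cells. The authors are described as trimming reads (Trimmomatic 0.39), aligning them to mm10 or hg38 plus a Drosophila spike-in genome (Bowtie2 2.4.1), removing duplicates with Picard and calling broad peaks with MACS2. The submitters' processing notes also list HOMER 4.9, with no role given. The deposited lists hold peak positions without a score or count, so depth and counting error are unknown and spike-in scaling does not enter them. The authors' keeping of peaks seen in several replicates had not been applied to these lists.

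For each gene (GENCODE M21 or 44) the percent of the 2001-bp window around the start, and of the gene span, under merged autosomal peaks was computed in Python 3.11.15 with numpy 2.4.6, pandas 2.3.3 and numba 0.67.0, checked against bedtools 2.31.1 and tested on simulated data. Figures used matplotlib 3.10.9. Sequence features were read from GRCm38 and hg38, which are the builds of the lists. Groups came from the labels. The pooled p-values were two-sided exact permutation values, with Benjamini-Hochberg adjustment over all genes. Members named per comparison are at most the 5 called in each direction with the largest difference of means, plus the germ cell genes and the members at the extremes. Pathway genes are given by count, with called ones named where room allowed. The members, lists and rules were chosen with earlier results of these data known.

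Alternatives were peaks of at least 1 kb, peaks joined within 1 kb, a window of 2 kb on each side, the gene span, equal numbers of peaks (the first in file order), a difference of at least 10 percentage points, members with unique windows, leaving out each library and a replicate block. The same-numbered libraries share only a number, since nothing in the labels ties them. The shortest-transcript start, each merged stretch counted once, and a crossed pairing were added after the data were seen.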

Additional observations from a re-analysis of the deposited data

Results flagged for a closer look

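The mean H2AK119ub coverage over the mouse histone genes differed between Tet2 KO and WT in opposite directions in the 2 cell types, by 3.71 percentage points in mES cells and by −2.50 in HSPCs. Both KO libraries were above both WT libraries in mES cells and below both in HSPCs. Because the groups did not overlap, leaving out 1 library at a time could not change either sign, only the size. The mES difference was then 2.258 to 5.16 and the HSPC difference −3.66 to −1.34 percentage points. The difference between the cell types was not tested. Over the annotated gene span the HSPC value was 1.22, so its sign depended on the stretch measured.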

How the results depend on the processing

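The difference in mean H2AK119ub between WT HSPCs and WT mES cells (45.9 percentage points) kept its sign under all settings tried, at 51.6 with peaks of at least 1 kb, 50.03 with peaks joined within 1 kb, 40.1 over 2 kb on each side, 50.7 with equal numbers of peaks and 52.0 with members whose windows are mostly unique. Equal numbers kept the first peaks in file order, and the basis of that order is unknown. Peaks touching members' windows lay at a median of 59.0% and 69.3% of the list in WT mES cells and 14.9% and 10.4% in WT HSPCs. That setting thus removes such peaks more readily in mES cells and is not a match of depth. For H3K27me3 the same difference was 3.35 with peaks of at least 1 kb against 10.7, with 4 members higher against 15. In mES cells the KO difference in mean H2AK119ub was 1.91 over 2 kb and 5.38 with equal numbers of peaks (3.71 as reported), and 2 members rather than 4 were lower with peaks of at least 1 kb, with equal numbers of peaks and with a difference of at least 10 points. Hist2h4 was at −6.15 with joined peaks, and Hist4h4 at 1.30 over 2 kb and 5.22 over the gene span. H3K27me3 in mES cells differed by −0.898 with peaks of at least 1 kb and −1.14 over the gene span (−1.72 as reported), with 0 members lower with peaks of at least 1 kb and 6 over 2 kb. In HSPCs the H2AK119ub difference was −5.49 over 2 kb and 1.22 over the gene span (−2.50 as reported), and Hist1h2be was at 2.54 over the gene span. The members lower there numbered 12 with joined peaks and 20 over 2 kb against 7, and those higher 3 over 2 kb and 2 at 10 points or more against 5. Counts of members under other settings are given here without the share of all genes under the same setting. They show how far a count depends on the setting and are not read as results about the members. For H3K27me3 in HSPCs 2 were lower and 5 higher with peaks of at least 1 kb, against 6 and 12, and in K562 cells 1 was higher over the gene span. The chromosome 13 members minus the others over the gene span were −16.7 (H2AK119ub, mES), −7.04 (H3K27me3, mES) and 10.2 (H2AK119ub, HSPC).

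Leaving out 1 library leaves 1 against 2, which by construction makes a call easier, for any gene as for members. The share of all genes called in this way is not given here, so the counts are not read as results about the members. In mES cells 7 to 10 members were then lower and 9 to 18 higher in KO for H2AK119ub, and 2 to 5 lower for H3K27me3. In HSPCs 15 to 23 were lower and 9 to 16 higher for H2AK119ub, and 7 to 14 lower and 13 to 21 higher for H3K27me3. In K562 cells 0 to 8 were lower and 0 to 6 higher. Between WT HSPCs and mES cells 2 to 4 were lower for H2AK119ub, and 15 to 33 higher for H3K27me3, the most without WT HSPC replicate 1. The mean H2AK119ub difference with KO ranged in mES cells from 2.258 (without WT replicate 1) to 5.16 (without WT replicate 2), and in HSPCs from −3.66 (without WT replicate 1) to −1.34 (without WT replicate 2), with −1.40 without KO replicate 1. The mean H3K27me3 difference with KO in HSPCs ranged from −1.93 (without WT replicate 1) to 7.67 (without WT replicate 2), and that of K562 from −1.37 (without siControl replicate 2) to 2.70 (without siControl replicate 1).

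With a replicate block, counting members for which both same-numbered pairs moved the same way, 6 were lower and 11 higher in mES KO for H2AK119ub, 12 and 8 in HSPC KO for H2AK119ub, 3 and 0 in mES KO and 7 and 16 in HSPC KO for H3K27me3, and 0 and 0 in K562 cells. The share of all genes counted in this way is not given here, so these counts are not read as results about the members. The same-numbered libraries share only a number, with correlations of deviations from −0.134 to 0.0314. With the numbers crossed in the replicate block for H3K27me3 in mES cells, chosen after the data were seen, 2 were lower and 0 higher. Depth is unknown, so a difference in covered length cannot be told apart from one in list length or depth.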
